A study of Mus musculus with 12 samples.

Results

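The histone modifying enzymes of the mouse liver were described here in whole-liver RNA-seq libraries. Members were all protein-coding genes of the count table whose symbol is Hdac, Kdm, Kmt, Prmt, Setd, Kat or Ezh followed by a number and at most 1 letter. The rule used names and no measured value, and it found 63 of 55357 genes: 18 lysine methyltransferases (Kmt, Setd and Ezh), 18 demethylases (Kdm), 8 acetyltransferases (Kat), 11 deacetylases (Hdac) and 8 arginine methyltransferases (Prmt). Of these, 61 had enough reads to be tested. Prmt8 had 0 counts in every library, and Kdm4d, between 0 and 7 counts per library, fell below the filter on low counts.

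The study asked how loss of PPARα in hepatocytes and a high-fat diet that lacks choline and has defined amino acids (CDAHFD) change the liver. All mice were males on a C57BL/6J background carrying Ppara fl/fl, so both genotypes held the floxed allele. KO mice also carried AlbuminCre Tg/+, whose albumin promoter drives Cre in hepatocytes and leaves Ppara intact in the other liver cells, and WT mice were AlbuminCre +/+. The diet was given for 6 weeks from 7 weeks of age, and livers were taken at 13 weeks. The labels give 4 WT libraries on chow (WT chow), 3 WT libraries on the diet (WT CDAHFD), 2 KO libraries on chow (KO chow) and 3 KO libraries on the diet (KO CDAHFD).

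Lysine methyltransferases and acetyltransferases add methyl and acetyl groups to lysines of histone tails, and demethylases and deacetylases remove them. Arginine methyltransferases methylate arginines of histones and of many RNA-binding proteins. The balance of these marks sets how open chromatin is, and methylation draws on S-adenosylmethionine, a metabolite made in quantity by the liver and linked to choline supply.

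Library totals ran from 29906785 to 43551003 counts. Levels are given as CPM, counts scaled to the library total, after TMM scaling, edgeR's correction for differences in library composition, and changes as log2 fold changes ± SE from edgeR's quasi-likelihood test over 17358 tested genes, called at an adjusted p under 0.05. Ppara, the targeted gene, measured 96.2 to 238 CPM in WT chow, 59.5 to 75.5 in WT CDAHFD, 14.4 to 38.7 in KO chow and 20.7 to 51.9 in KO CDAHFD, so the KO libraries lay below the WT libraries of the same diet. The hepatocyte markers Alb, Ttr, Apoa1 and 7 others were detected in every group. The labels do not say that each library came from its own mouse, so p-values measure the spread between these libraries, which may in part be technical.

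Some libraries stood apart. KO chow replicate 1 was low for long genes: of the 19 members with at least 10 kb of exons, all 19 lay lower in replicate 1 than in replicate 2, with a median log2 ratio of -0.52. The 42 shorter members had a median of -0.02. Across all 1371 tested genes of at least 10 kb the median was -0.30, with 78.1% lower in replicate 1. Taken from each gene's mean log2 level over all libraries, these 1371 genes had a median of -0.19 in KO chow replicate 1. The median was -0.12 in KO CDAHFD replicate 2, -0.10 in WT chow replicate 2 and from -0.04 to 0.13 elsewhere. The 19 long members were at -0.48, -0.17 and -0.10 in the 3 libraries named. WT chow replicates 3 and 4 differed from replicates 1 and 2 in the circadian clock genes. A clock score, the mean centred log2 level of 7 clock-output genes minus that of 4 genes of the opposite phase, was -2.99 and -2.38 in replicates 1 and 2 against 3.51 and 3.45 in replicates 3 and 4. The score also split KO chow (-2.42 and 1.62) and set KO CDAHFD replicate 3 apart (4.38, against -0.94 and -0.84), while the WT CDAHFD libraries ran from -1.43 to -0.57. In 24 members (39.3%) WT chow replicates 3 and 4 both lay above replicates 1 and 2, against 23.2% of all genes tested. In 9 members (14.8%) they both lay below, against 21.6%. Members whose calls against WT chow rest on KO chow replicate 1 are given with and without it. Without it KO chow is 1 library, whose spread the fit takes from the other groups, so a lost call there does not show a smaller change.

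**Figure D1:**
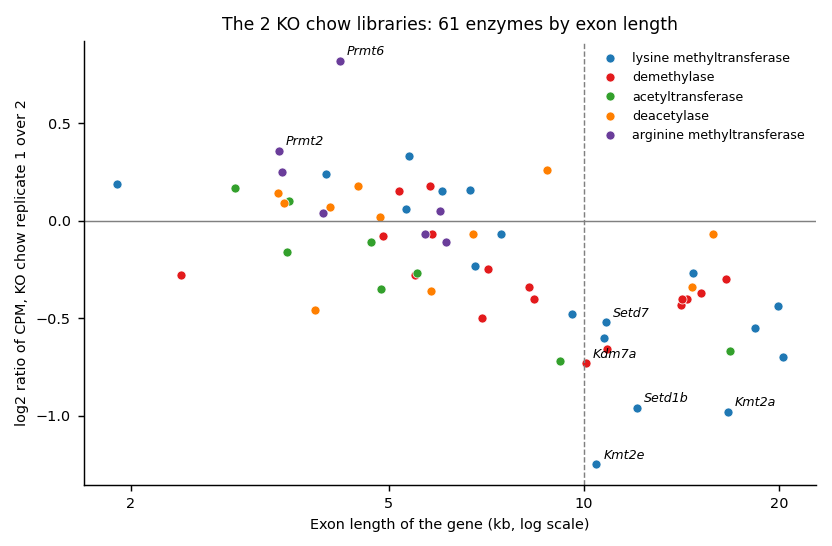
Log2 ratio of the CPM in KO chow replicate 1 to that in replicate 2 (y axis) for the 61 tested enzymes, against exon length in kb on a log axis, coloured by class. All 19 enzymes at or beyond the dashed line at 10 kb lie below 0, with a median of -0.52.

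The 4 promoter windows shown here belong to the members that were called higher than WT chow in all 3 other groups and also in the test of the interaction of genotype and diet. Each runs from 250 bases before the gene's start to 50 after it, on the gene's strand, from RefSeq on GRCm38.p6. They lie at chr6:47594981-47595280 (minus strand) for Ezh2, chr5:124439680-124439979 (plus strand) for Kmt5a, chr10:76237816-76238115 (minus strand) for Prmt2 and chr3:51560774-51561073 (minus strand) for Setd7, and capitals mark a match to a searched motif. In the GENCODE annotation of the same build the genes span chr6:47530139-47595341 (Ezh2), chr5:124439930-124462308 (Kmt5a), chr10:76207222-76237865 (Prmt2) and chr3:51515319-51560879 (Setd7):
Ezh2: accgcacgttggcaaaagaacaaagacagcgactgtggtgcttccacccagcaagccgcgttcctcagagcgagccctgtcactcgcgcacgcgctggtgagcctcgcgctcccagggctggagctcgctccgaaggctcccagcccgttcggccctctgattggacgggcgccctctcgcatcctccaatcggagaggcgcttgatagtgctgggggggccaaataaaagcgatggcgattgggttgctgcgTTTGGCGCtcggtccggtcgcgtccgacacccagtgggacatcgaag
Kmt5a: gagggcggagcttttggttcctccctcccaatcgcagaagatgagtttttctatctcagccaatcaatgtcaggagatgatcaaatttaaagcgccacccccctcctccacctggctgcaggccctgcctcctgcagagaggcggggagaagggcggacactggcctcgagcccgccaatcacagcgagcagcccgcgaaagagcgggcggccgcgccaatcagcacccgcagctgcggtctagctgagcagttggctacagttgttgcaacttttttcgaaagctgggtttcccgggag
Prmt2: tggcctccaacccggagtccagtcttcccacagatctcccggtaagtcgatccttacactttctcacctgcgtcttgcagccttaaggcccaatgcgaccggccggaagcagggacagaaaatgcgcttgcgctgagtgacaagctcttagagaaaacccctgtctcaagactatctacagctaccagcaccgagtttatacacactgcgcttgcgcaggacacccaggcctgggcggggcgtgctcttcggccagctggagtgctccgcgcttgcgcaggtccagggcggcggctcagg
Setd7: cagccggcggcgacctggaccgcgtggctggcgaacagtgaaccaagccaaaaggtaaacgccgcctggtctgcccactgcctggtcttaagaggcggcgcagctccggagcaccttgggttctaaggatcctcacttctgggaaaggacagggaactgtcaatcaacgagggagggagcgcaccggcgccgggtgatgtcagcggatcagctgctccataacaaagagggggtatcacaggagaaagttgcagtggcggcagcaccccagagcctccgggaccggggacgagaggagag

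All 4 windows were rich in G and C, from 59.7% in Kmt5a to 64.3% in Ezh2, and held 18 to 31 CG pairs. Both strands were searched for AGGTCA (the core of a nuclear receptor site), its direct repeat with 1 base of any kind, N, between the copies (the pair of such sites that PPARα binds with RXR), TTTNNCGC (the E2F site) and CACGTG (the E-box read by clock factors). Among these windows the single match was TTTNNCGC in Ezh2, with its first base at position 4 after the start. Kmt5a has 3 windows in the table, of which the one nearest the annotated start is shown, and another, at chr5:124446454-124446753, holds AGGTCA. In all, 51 of the 63 members had a window, in 70 windows. AGGTCA was in 11.4% of the member windows and in 16.3% of all 32851 windows, the direct repeat in none and 0.0396%, TTTNNCGC in 4.29% and 5.17%, and CACGTG in 8.57% and 7.15%. A match describes letters and no binding, and the lack of one says only that those letters are not in the window.

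Over the whole family, the changes ran both ways. In KO chow, 11 members rose and 13 fell against WT chow, 39.3% of those tested, and 39.0% of all tested genes were called in the same comparison (22.0% higher, 17.0% lower). WT CDAHFD had 9 higher and 8 lower, 27.9% of members against 51.1% of all genes (26.1% higher, 25.0% lower), and KO CDAHFD also had 9 higher and 8 lower, 27.9% against 52.4% (26.9% higher, 25.4% lower). No test compared these shares. The values of 29 of the 61 members did not overlap between KO chow and WT chow, against 23 for WT CDAHFD and 16 for KO CDAHFD, where 50.2%, 55.4% and 51.5% of all genes did not. The median member moved by -0.13, -0.04 and -0.08 on the log2 scale in the 3 comparisons, where the median of all genes was 0.00, -0.05 and -0.04.

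These 3 comparisons share the WT chow libraries, so similar values in them are not independent. Ezh2, Hdac7, Kdm1a, Kmt5a, Prmt2 and Setd7 were called higher in all 3 (9.84% of members and 18.2% of all genes), and Kat2b and Kdm5d lower (3.28% and 12.6%). In KO chow but neither CDAHFD group 10 members were called (16.4%, against 4.05% of all genes), in both CDAHFD groups but not KO chow 5 (8.20% against 13.4%: Ezh1, Hdac6, Kat8, Setd4 and Setd6), and 30 in none (49.2% against 36.8%). These patterns depended on the scaling: with library size alone the members of the same 3 kinds numbered 1, 21 and 12 (1.64%, 34.4% and 19.7%, against 3.45%, 14.1% and 28.2% of all genes). With TMM scaling no member was called in opposite directions between these comparisons. In KO CDAHFD, Hdac6 and Kdm1b were called lower with TMM scaling and higher with library size alone.

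**Figure D2:**
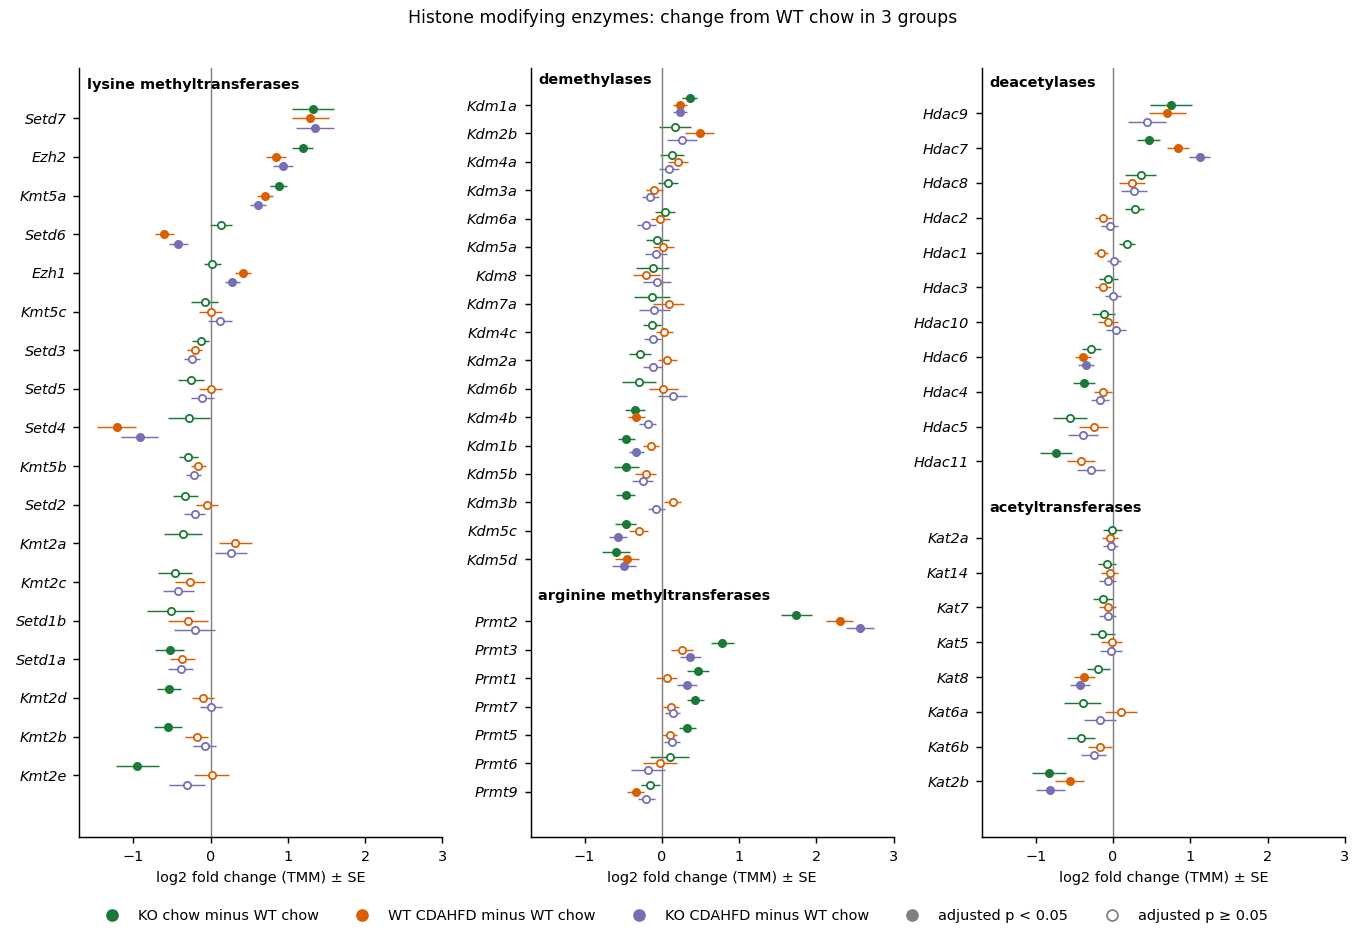
Log2 fold change ± SE (x axis, TMM scaling) of each of the 61 tested enzymes against WT chow in KO chow (green), WT CDAHFD (orange) and KO CDAHFD (purple), by class. Filled points have an adjusted p under 0.05, and Prmt2 shows the largest rise, 2.56 in KO CDAHFD.

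Most of the falls depended on the scaling. With library size as the only scaling, the median of all genes itself moved to 0.40, 0.51 and 0.57 (KO chow, WT CDAHFD and KO CDAHFD), because the TMM factors were 0.729 to 0.827 in WT chow and 1.026 to 1.258 in the other groups. Members then gave 22 higher and 0 lower calls in KO chow (40.5% and 6.62% of all genes), 43 and 1 in WT CDAHFD (52.4% and 6.74%), and 46 and 0 in KO CDAHFD (56.3% and 6.31%). Their medians were 0.28, 0.51 and 0.54, at or below the shift of all genes. Of the 61, only Setd4 in WT CDAHFD fell under both scalings, by -1.22 and by -0.65. The 6 members called higher in all 3 comparisons kept those calls, as did the 5 arginine methyltransferases called in KO chow. Every other fall of a member against WT chow was called with TMM scaling alone.

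**Figure D3:**
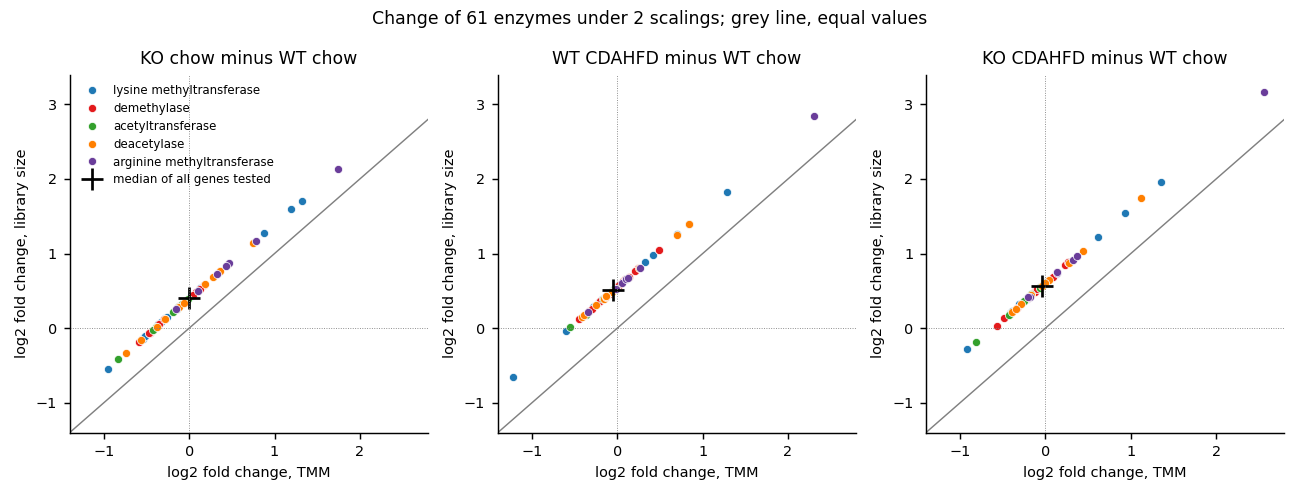
Log2 fold change of the 61 enzymes against WT chow with TMM scaling (x axis) and with library size alone (y axis), 1 panel per group, coloured by class. The points lie on a line above equality, and the cross, the median of all tested genes, sits at 0.40, 0.51 and 0.57 on the y axis.

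The arginine methyltransferases were the class with the largest share of rises in KO chow: 5 of 7 tested (Prmt1, Prmt2, Prmt3, Prmt5 and Prmt7), with a class median of 0.43, where 22.0% of all genes rose. The other 2 tested, Prmt6 and Prmt9, changed by 0.10 and -0.15 and were not called. In the diet groups Prmt2 was called higher and Prmt9 lower in WT CDAHFD, and Prmt1, Prmt2 and Prmt3 higher in KO CDAHFD (26.1% and 26.9% of all genes were higher). Scaled by library size alone, 5 were called higher in KO chow and, on the diet, 5 for WT and 6 for KO, with none lower. Carm1, a related enzyme outside the naming rule, fell in KO chow by -0.56 (edgeR adjusted p = 0.0352), and without KO chow replicate 1 the change was -0.23 (adjusted p = 0.440).

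Prmt2, an asymmetric arginine methyltransferase and coactivator of nuclear receptors (ENSMUSG00000020230), had the strongest change of any member. Its level in WT chow was 0.932, 1.07, 1.13 and 0.780 CPM, the lowest level per length of any tested member of its class. It measured 5.41, 4.70 and 4.46 CPM in WT CDAHFD, 3.73 and 2.89 in KO chow, and 6.18, 5.72 and 5.54 in KO CDAHFD. WT chow was below all other libraries, and the KO CDAHFD libraries were above all the rest. The log2 fold change was 2.30 ± 0.18 in WT CDAHFD (edgeR adjusted p = 5.3e-07), 1.74 ± 0.20 in KO chow (adjusted p = 2.35e-05) and 2.56 ± 0.18 for KO CDAHFD (adjusted p = 2.17e-07). Prmt2 also rose from KO chow to KO CDAHFD, by 0.82 ± 0.20 (edgeR adjusted p = 0.0342), a call lost in 8 of the 12 fits that leave out 1 library.

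Prmt3, which methylates a protein of the small ribosomal subunit, measured 12.7, 8.66, 9.87 and 8.90 CPM in WT chow and 17.5 and 16.9 for KO chow. The KO chow libraries stood above all others, since WT CDAHFD had 11.8, 12.5 and 11.6 CPM and KO CDAHFD 13.9, 13.2 and 11.9. The rise in KO chow was 0.78 ± 0.15 (edgeR adjusted p = 0.00146) and that in KO CDAHFD 0.37 ± 0.14 (adjusted p = 0.0366), with the latter overlapping WT chow.

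Prmt1, the main asymmetric arginine methyltransferase of most cells, and Prmt5, the main symmetric one, had the highest levels per length of the class in WT chow, 5.30 ± 0.57 and 4.90 ± 0.43 CPM per kb (SD, n = 4). Prmt1 measured 20.3, 19.3, 16.3 and 16.8 CPM in WT chow against 27.4 and 23.0 in KO chow, without overlap (0.47 ± 0.14, edgeR adjusted p = 0.0191). In WT CDAHFD it was 20.6, 18.4 and 17.8 CPM, within WT chow but for 1 library, and in KO CDAHFD 21.3, 26.6 and 20.3. Prmt5, chosen for description after its values were seen, rose from 17.2 to 21.3 CPM in WT chow to 24.7 and 24.1 in KO chow (0.33 ± 0.11, edgeR adjusted p = 0.0278).

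Prmt7, which places single methyl groups, measured 16.3, 15.5, 15.7 and 15.0 CPM in WT chow and 20.2 and 21.9 for KO chow (0.43 ± 0.11, edgeR adjusted p = 0.00683). WT CDAHFD had 17.6, 16.5 and 16.7 CPM and KO CDAHFD 18.8, 16.9 and 15.9, and neither was called. Part of its exons lies opposite Smpd3, and since the libraries did not keep strand, reads in those 247 bases cannot be assigned to either gene. Prmt9, which dimethylates a splicing factor, fell in WT CDAHFD from 12.7, 15.3, 14.1 and 15.2 CPM to 11.4, 10.6 and 11.9 (-0.34 ± 0.11, edgeR adjusted p = 0.0173), and measured 12.6 and 13.3 CPM in KO chow and 11.9, 12.9 and 12.7 in KO CDAHFD. Without KO chow replicate 1, Prmt2, Prmt3 and Prmt7 kept their calls in KO chow, and Prmt1 and Prmt5 did not (0.36 and 0.33, edgeR adjusted p = 0.172 and 0.111).

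Among the lysine methyltransferases, Setd7, Ezh2 and Kmt5a rose in all 3 comparisons, while 4 large enzymes of the Kmt2 and Setd1 families (Kmt2b, Kmt2d, Kmt2e and Setd1a) were called lower in KO chow. In KO chow 3 of 18 rose and 4 fell (22.0% and 17.0% of all genes), and in each CDAHFD group 4 rose and 2 fell (26.1% and 25.0% of all genes in WT CDAHFD, 26.9% and 25.4% in KO CDAHFD). Scaled by library size alone, 6, 12 and 12 were called higher and 0, 1 and 0 lower. Setd3, a histidine methyltransferase of actin that shares the SET domain, had the highest level per length, 19.9 ± 2.13 CPM per kb in WT chow. It measured 105, 115, 128 and 134 CPM in WT chow, 104 in each of 3 WT CDAHFD libraries, 116 and 104 in KO chow and 104, 106 and 96.9 in KO CDAHFD, and was not called in any of the 3.

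Setd7, which adds a single methyl group to a lysine of histone H3 linked to active promoters, measured 16.3, 7.78, 8.37 and 8.53 CPM in WT chow. It reached 26.8, 26.2 and 22.2 CPM in WT CDAHFD, 21.02 and 30.10 in KO chow, and 24.9, 21.9 and 31.6 in KO CDAHFD. WT chow replicate 1 lay apart from its group and still below every library of the other groups. The rise was 1.29 ± 0.24 in WT CDAHFD (edgeR adjusted p = 0.000694), 1.32 ± 0.27 in KO chow (adjusted p = 0.00176) and 1.35 ± 0.24 for KO CDAHFD (adjusted p = 0.000454).

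Ezh2, the methyltransferase of Polycomb repressive complex 2 in dividing cells, measured 5.36, 6.17, 5.60 and 5.73 CPM in WT chow and 13.8 and 12.3 for KO chow. WT CDAHFD had 9.86, 9.48 and 11.4 CPM and KO CDAHFD 11.7, 11.3 and 9.68. All 8 libraries of the other groups were above all 4 of WT chow, and KO chow was above the rest. The log2 fold change was 1.19 ± 0.14 in KO chow (edgeR adjusted p = 2.56e-05), 0.84 ± 0.13 for WT CDAHFD (adjusted p = 0.000118) and 0.93 ± 0.13 for KO CDAHFD (adjusted p = 4.77e-05).

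Ezh1, the paralog that serves the same complex in resting cells, was chosen for description after its values were seen, to set beside Ezh2. It measured 22.8, 26.9, 22.1 and 25.5 CPM in WT chow, 33.5, 30.8 and 33.6 in WT CDAHFD, 24.1 and 25.3 in KO chow and 29.9, 30.2 and 28.4 in KO CDAHFD. Against WT chow it rose by 0.42 ± 0.10 in WT CDAHFD (edgeR adjusted p = 0.00255) and by 0.28 ± 0.10 in KO CDAHFD (adjusted p = 0.0269), and the difference was 0.02 in KO chow. Between KO chow and KO CDAHFD the difference of 0.26 was not called (edgeR adjusted p = 0.208). Scaled by library size alone, Ezh1 was called higher in KO chow too (0.43, edgeR adjusted p = 0.00426) and from KO chow to KO CDAHFD (0.46, adjusted p = 0.0260). Per length, Ezh2 made up 20.78%, 20.34%, 21.99% and 20.03% of the Ezh1 and Ezh2 total in WT chow, 24.7%, 25.6% and 27.4% in WT CDAHFD, 39.0% and 35.2% in KO chow and 30.4%, 29.5% and 27.5% in KO CDAHFD. The share was thus highest in the KO chow libraries and Ezh1 stayed the more abundant of the pair in all 12.

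Kmt5a, which adds the single methyl group on histone H4 that marks mitotic chromatin, measured 44.8, 38.0, 47.5 and 41.7 CPM in WT chow. In KO chow it was 80.9 and 77.4 CPM, in WT CDAHFD 69.1, 72.3 and 68.0, and in KO CDAHFD 69.4, 67.0 and 60.3. WT chow did not overlap any other group, and KO chow lay above the rest. The rise was 0.88 ± 0.11 in KO chow (edgeR adjusted p = 3.96e-05), 0.70 ± 0.10 for WT CDAHFD (adjusted p = 6.43e-05) and 0.61 ± 0.10 for KO CDAHFD (adjusted p = 0.000187).

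Markers of several other cell types moved with these rises, and their part in them was not tested. The summed level of 16 genes of proliferating cells was 55.5 to 62.8 CPM in WT chow, 260 to 291 in WT CDAHFD, 283 to 450 in KO chow and 185 to 300 in KO CDAHFD, and all 16 were called higher in each comparison with WT chow. The 12 macrophage markers summed to 278 to 501, 1370 to 1800, 973 to 1230 and 1300 to 1630 CPM in the same order. Of these, 9 or 10 were called higher, and 1 was called lower in each CDAHFD group. The 10 stellate cell and fibroblast markers summed to 252 to 368, 1640 to 1740, 1380 to 1540 and 1780 to 2410 CPM, and the 10 hepatocyte markers to between 100000 and 118000, 51100 and 60900, 81900 and 94800, and 48300 and 63700 CPM. No marker of these 4 lists was at 3 counts or fewer over a group. Of the hepatocyte markers, 7 were called lower for KO chow, 10 for WT CDAHFD and 10 for KO CDAHFD, and 0 higher. When library size was the only scaling, 0, 8 and 6 were called lower, and 1 was called higher for KO chow. The KO chow median of these markers was -0.71 with TMM scaling and -0.3 with library size, so their lower calls there depended on the scaling. The 7 cholangiocyte markers summed to 69.8 to 105, 386 to 608, 187 to 306 and 602 to 915 CPM. Of these, 5 or 6 were called higher, and 1 was called lower in KO chow. Prmt2, Hdac7 and the stellate cell and fibroblast markers shared the order of the cholangiocyte group means. Kmt5a and Kdm1a shared instead the order of the proliferating cell, neutrophil and T and NK cell group means. Ezh2 and Setd7 followed neither order. These orders were read after the values were seen and were not tested. The 10 T and NK cell markers summed to between 6.65 and 14.1 CPM in all groups. In each comparison with WT chow 5 or 6 of them were called higher and 1 lower. The 8 neutrophil markers summed to 2.86 to 14.6 CPM in WT chow and 22.2 to 33.4 in the other groups, with 5 or more of 7 tested called higher and Ly6g at 3 counts or fewer throughout. In whole liver, fewer cells of a type and less RNA per cell cannot be told apart.

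Setd6, which methylates the NF-κB subunit RelA, was lower in both CDAHFD groups than in either chow group. It measured 19.7, 22.0, 20.2 and 22.8 CPM in WT chow and 24.7 and 21.6 for KO chow, against 14.1, 11.8 and 15.9 in WT CDAHFD and 16.7, 16.4 and 14.4 in KO CDAHFD. All 6 CDAHFD libraries lay below all 6 chow libraries. The change was -0.60 ± 0.12 in WT (edgeR adjusted p = 0.00122) and -0.42 ± 0.12 in KO CDAHFD against WT chow (adjusted p = 0.0109). Against KO chow it was -0.55 ± 0.14 in KO CDAHFD (edgeR adjusted p = 0.0406) and -0.73 ± 0.14 for WT CDAHFD (adjusted p = 0.0113). The former call was lost in 6 of the 12 fits that leave out 1 library and with library size (-0.35, edgeR adjusted p = 0.121). Leaving out KO chow replicate 1, the differences were -0.44 and -0.63 and neither was called (edgeR adjusted p = 0.271 and 0.112). With library size the differences from WT chow were -0.04 in WT CDAHFD and 0.19 in KO CDAHFD, also not called.

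Setd4, chosen for description after its values were seen, showed the largest fall of any member in the CDAHFD groups against WT chow. It measured 9.71, 9.19, 8.30 and 14.0 CPM in WT chow, 9.44 and 7.47 for KO chow, 4.32, 4.66 and 4.26 in WT CDAHFD, and 4.44, 3.98 and 7.85 in KO CDAHFD. KO CDAHFD replicate 3, the library with the highest clock score, lay among the chow libraries and the other 5 CDAHFD libraries below them. In WT chow, replicates 4 and 3, both of high score, held the highest and the lowest value, 14.0 and 8.30 CPM. In KO chow, replicate 1, of the lower score, lay above replicate 2. The change was -1.22 ± 0.25 in WT CDAHFD (edgeR adjusted p = 0.00123), -0.92 ± 0.24 for KO CDAHFD (adjusted p = 0.00676) and -0.28 with KO chow (adjusted p = 0.441).

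Kmt2d belongs to the family of large enzymes, scaffolded by COMPASS subunits, that methylate histone H3 at enhancers and promoters. Kmt2e shares the Kmt2 name but lacks a clear methyltransferase activity. Kmt2e measured 48.5, 50.5, 51.9 and 63.0 CPM in WT chow and 16.3 and 38.8 for KO chow (-0.95 ± 0.28, edgeR adjusted p = 0.0154). Without KO chow replicate 1 it was -0.44 (edgeR adjusted p = 0.179), and 972 exon bases of the gene lie opposite Srpk2. WT CDAHFD had 53.3, 55.3 and 52.5 CPM and KO CDAHFD 44.5, 32.9 and 51.6.

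Kmt2d measured 50.9, 46.4, 67.3 and 59.1 CPM in WT chow, 32.5 and 44.2 for KO chow (-0.54 ± 0.16, edgeR adjusted p = 0.0171), 52.7, 50.5 and 53.0 in WT CDAHFD and 61.3, 54.3 and 52.7 in KO CDAHFD. Kmt2b and Setd1a, of the same family and named after their values were seen, changed in KO chow by -0.55 ± 0.18 (edgeR adjusted p = 0.0263) and -0.53 ± 0.19 (adjusted p = 0.0400). Setd1a was also at -0.37 in WT CDAHFD and -0.39 in KO CDAHFD, neither called (edgeR adjusted p = 0.0730 and 0.0598). Without KO chow replicate 1 the differences of Kmt2b, Kmt2d, Kmt2e and Setd1a were -0.31, -0.32, -0.44 and -0.40, and none was called. Kmt2d and Kmt2e have at least 10 kb of exons. The other 7 members of that length in this class, Kmt2a, Kmt2c, Kmt5b, Setd1b, Setd2, Setd5 and Setd7, gave 1 call in KO chow, the rise of Setd7. In the other classes Hdac4, Kdm3b, Kdm5b and Kdm5d, all called lower in KO chow, are also of that length. So are Hdac9, called higher, and Kat6b, Kdm2a, Kdm2b, Kdm5a and Kdm7a, not called there. The part of length in these calls was not tested.

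**Figure D4:**
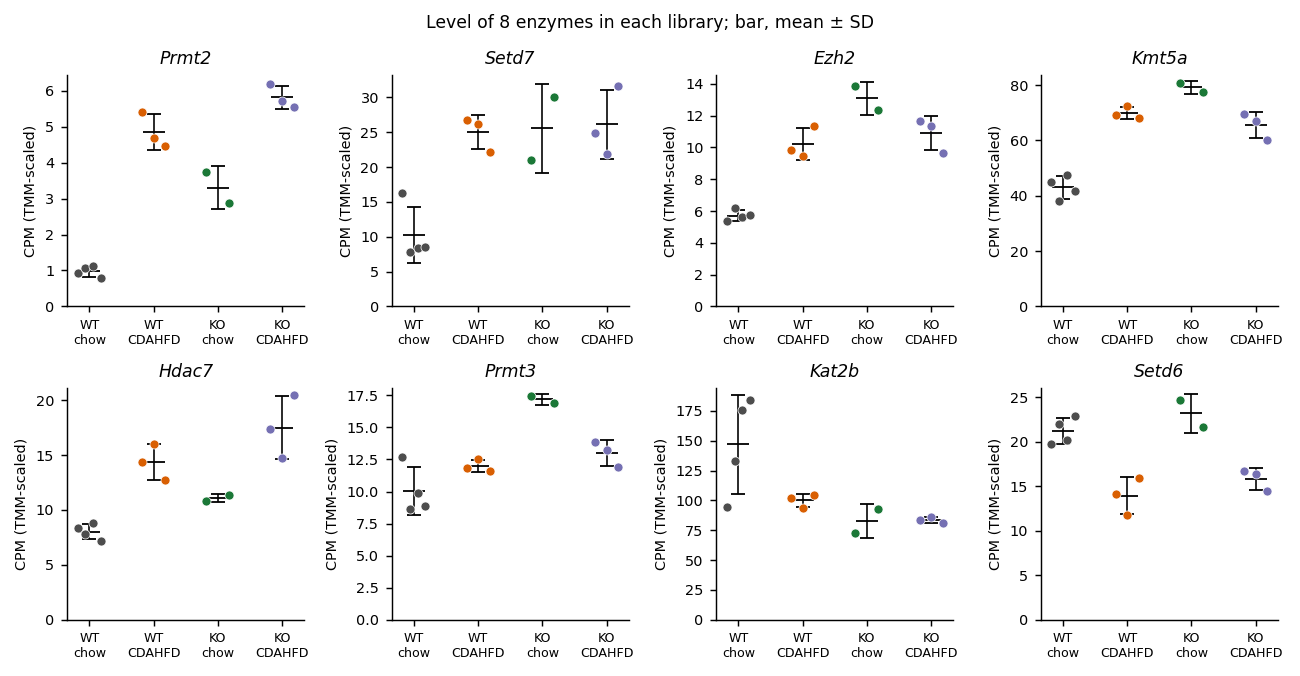
TMM-scaled CPM (y axis, from 0) of 8 enzymes in the 12 libraries, 1 point per library, with the mean ± SD of each group as bars (WT chow n = 4, KO chow n = 2, others n = 3). WT chow lies below every other library for Prmt2, Setd7, Ezh2, Kmt5a and Hdac7, and the 6 CDAHFD libraries lie below the 6 chow libraries for Setd6.

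Of 17 demethylases tested, 1 rose and 6 fell in KO chow (22.0% and 17.0% of all genes), 2 and 2 in WT CDAHFD (26.1% and 25.0%), and 1 and 3 in KO CDAHFD (26.9% and 25.4%). Scaled by library size alone, 4, 13 and 15 were called higher and none lower. Kdm1a, the flavin-dependent demethylase LSD1, was the one called higher in all 3 comparisons. It measured 23.9, 21.8, 20.9 and 22.8 CPM in WT chow, 30.1 and 27.1 for KO chow, 27.1, 26.2 and 26.1 in WT CDAHFD and 26.6, 26.6 and 25.7 in KO CDAHFD. WT chow lay below all other libraries, and the rises were small, 0.36 ± 0.10, 0.24 ± 0.09 and 0.23 ± 0.09 (edgeR adjusted p = 0.0121, 0.0324 and 0.0404). Its paralog Kdm1b fell in KO chow, from 39.2, 36.6, 43.4 and 39.1 CPM to 25.9 and 31.5 (-0.46 ± 0.11, edgeR adjusted p = 0.00558). In KO CDAHFD, at 30.98, 32.75 and 30.40 CPM, it also fell (-0.33 ± 0.10, edgeR adjusted p = 0.0113), and WT CDAHFD had 35.0, 36.3 and 36.5. With library size alone Kdm1b was called higher in KO CDAHFD and in WT CDAHFD (0.42 in the latter, edgeR adjusted p = 0.00297). Of its exons, 505 bases lie opposite the abundant gene Dek.

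The Kdm5 enzymes remove methyl groups from the promoter mark that Kmt2 enzymes write. Kdm5c, on chromosome X, had the highest level per length of the class, 13.1 ± 1.43 CPM per kb in WT chow. It measured 103, 79.1, 96.7 and 93.1 CPM in WT chow, 61.2 and 72.7 for KO chow and 72.5, 59.6 and 55.6 in KO CDAHFD, with falls of -0.47 ± 0.14 and -0.57 ± 0.12 (edgeR adjusted p = 0.0165 and 0.00162). WT CDAHFD, at 74.4, 75.7 and 77.2 CPM, was below WT chow without overlap and not called (-0.30, adjusted p = 0.0566).

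Kdm5d, the Y-chromosome paralog of Kdm5c, measured 25.3, 29.8, 20.3 and 31.8 CPM in WT chow, 15.5 and 20.1 for KO chow, 19.2, 19.5 and 20.3 in WT CDAHFD and 19.5, 16.3 and 21.4 in KO CDAHFD. Its falls were -0.59 ± 0.18, -0.45 ± 0.16 and -0.49 ± 0.16 in that order (edgeR adjusted p = 0.0222, 0.0310 and 0.0195). Kdm5b, named after its values were seen, changed by -0.46 ± 0.16 in KO chow (edgeR adjusted p = 0.0394).

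Kdm3b, a demethylase of a repressive mark on histone H3, measured 45.5, 42.1, 44.9 and 42.9 CPM in WT chow, 27.0 and 36.3 for KO chow, 48.8, 46.9 and 48.9 in WT CDAHFD and 44.8, 39.8 and 40.4 in KO CDAHFD. KO chow was below every other library. It fell in KO chow by -0.47 ± 0.12 (edgeR adjusted p = 0.00858) and was the sole member higher in WT CDAHFD than in KO chow (0.61 ± 0.13, adjusted p = 0.0171), a call lost without KO chow replicate 1 (0.42, adjusted p = 0.163) and without WT CDAHFD replicate 1 or 2 (adjusted p = 0.0656 and 0.0518). Kdm4b measured 19.7, 22.9, 24.2 and 21.7 CPM in WT chow, 16.9 and 17.8 for KO chow and 17.5, 17.4 and 17.8 in WT CDAHFD (-0.35 ± 0.13 and -0.33 ± 0.11, edgeR adjusted p = 0.0426 and 0.0225), and 22.2, 17.2 and 19.1 in KO CDAHFD. Kdm2b, a demethylase that recruits Polycomb to CpG islands, rose in WT CDAHFD from 7.22, 8.91, 9.04 and 8.39 to 3 values from 11.0 to 12.4 CPM (0.49 ± 0.19, edgeR adjusted p = 0.0438), with KO chow at 7.32 and 11.6 CPM and KO CDAHFD at 10.1, 7.59 and 12.5. That gene shares 627 exon bases with Rnf34 on the other strand. Without KO chow replicate 1, the falls of Kdm1b, Kdm3b, Kdm4b, Kdm5b, Kdm5c and Kdm5d in KO chow and the rise of Kdm1a lost their calls, with edgeR adjusted p from 0.101 to 0.307. Their log2 changes were then -0.31, -0.25, -0.30, -0.30, -0.34 and -0.39, and 0.30 for Kdm1a.

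The acetyltransferases gave the fewest calls in KO chow, 1 of 8, and 2 in each CDAHFD group, all lower, where 17.0%, 25.0% and 25.4% of all genes were called lower. Scaled by library size alone, 1, 5 and 4 were called higher and none lower. Kat2b, the coactivator PCAF, was by far the most abundant per length, 30.2 ± 8.51 CPM per kb in WT chow, where it made up 45.4% of the class total per length. It measured 94.7, 133, 176 and 184 CPM in WT chow, 102, 93.9 and 104 in WT CDAHFD, 72.7 and 92.6 in KO chow and 83.7, 86.0 and 81.2 in KO CDAHFD. WT chow replicates 3 and 4, the pair with the high clock score, held the top values, and replicate 1 lay within the range of WT CDAHFD. In KO chow the higher value, 92.6 CPM, was that of replicate 2, which had the higher score. KO CDAHFD replicate 3, with the highest score of all, held the lowest value of its group, 81.2 CPM. The falls were -0.83 ± 0.22 in KO chow (edgeR adjusted p = 0.00958), -0.56 ± 0.19 for WT CDAHFD (adjusted p = 0.0258) and -0.81 ± 0.19 for KO CDAHFD (adjusted p = 0.00310). With the clock score as a covariate they were -0.75, -0.41 and -0.80 (edgeR adjusted p = 0.00254, 0.0275 and 0.000346), and without KO chow replicate 1 the first was -0.65 (adjusted p = 0.117).

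Kat8, which acetylates histone H4, measured 19.9, 17.6, 23.3 and 18.3 CPM in WT chow, 15.4, 14.0 and 16.4 in WT CDAHFD, 14.8, 16.5 and 12.7 in KO CDAHFD, with KO chow at 18.3 and 16.3. Against WT chow it fell by -0.37 ± 0.13 in WT CDAHFD (edgeR adjusted p = 0.0296) and by -0.43 ± 0.13 in KO CDAHFD (adjusted p = 0.0145). Between KO chow and KO CDAHFD, which overlapped, the difference of -0.24 was not called (edgeR adjusted p = 0.386), and 122 of its exon bases lie opposite Prss8. The MYST-family enzymes Kat6a, Kat6b and Kat7 were not called. Kat6a ranged from 33.8 to 47.6 CPM in WT chow, 41.9 to 44.8 in WT CDAHFD, 23.3 to 38.5 in KO chow and 26.0 to 47.4 in KO CDAHFD. Kat6b measured 16.6 to 21.2, 15.1 to 19.4, 11.2 to 17.8 and 14.8 to 17.7 CPM in the same order, and Kat7 29.3 to 36.7, 29.9 to 33.7, 27.6 to 33.2 and 28.9 to 33.4. Kat14, Kat2a and Kat5 changed by between -0.14 and -0.01 on the log2 scale in the 3 comparisons and were not called.

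Of 11 deacetylases, 2 rose and 2 fell in KO chow (22.0% and 17.0% of all genes), 2 and 1 in WT CDAHFD (26.1% and 25.0%) and 1 and 1 in KO CDAHFD (26.9% and 25.4%), against 6, 8 and 9 higher and none lower when scaled by library size alone. The rises were those of Hdac7 and Hdac9, of class IIa, whose members act as corepressors in the nucleus. Among the other class IIa members Hdac4 fell in KO chow and Hdac5, at -0.56 ± 0.22 there, was not called (edgeR adjusted p = 0.0601, against 0.0434 by DESeq2). Hdac7, known from endothelial and immune cells, measured 8.308, 7.806, 8.770 and 7.201 CPM in WT chow, 10.8 and 11.3 for KO chow, 14.3, 16.0 and 12.8 in WT CDAHFD and 17.3, 14.7 and 20.5 in KO CDAHFD. The groups followed that order with overlap between the CDAHFD groups alone. The rise was 0.46 ± 0.15 in KO chow (edgeR adjusted p = 0.0293), 0.84 ± 0.14 for WT CDAHFD (adjusted p = 0.000223) and 1.12 ± 0.14 for KO CDAHFD (adjusted p = 1.88e-05), and from KO chow to KO CDAHFD 0.66 ± 0.16 (adjusted p = 0.0344), a call lost in 5 of the 12 fits that leave out 1 library, among them that without KO chow replicate 1 (0.64, adjusted p = 0.213). Its exons share 29 bases with Slc48a1 on the other strand. The 9 endothelial markers summed to 198 to 307 CPM in WT chow, 139 to 196 in WT CDAHFD, 191 to 280 in KO chow and 137 to 257 in KO CDAHFD, with 1 called higher and 0 lower in KO chow, 0 and 5 in WT CDAHFD (median -0.73) and 0 and 4 in KO CDAHFD (median -0.37). With library size as the only scaling these were 1 and 0, 1 and 0 (median -0.18) and 2 and 0 (median 0.26). With TMM scaling, 10, 9 and 9 of the 12 macrophage markers were called higher and 0, 1 and 1 lower in the same order. The part of either list in the rise of Hdac7 was not tested.

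Hdac9 was low throughout, 0.107 ± 0.030 CPM per kb in WT chow. It measured 1.75, 1.83, 1.80 and 0.917 CPM in WT chow, 2.34 and 2.98 for KO chow (0.75 ± 0.27, edgeR adjusted p = 0.0446), 2.50, 2.72 and 2.51 in WT CDAHFD (0.70 ± 0.24, adjusted p = 0.0285) and 2.67, 1.84 and 1.95 in KO CDAHFD. The third class IIa member named, Hdac4, went the other way in KO chow, from 13.98, 12.02, 16.34 and 14.59 CPM to 10.7 and 11.2 (-0.38 ± 0.14, edgeR adjusted p = 0.0407), with 13.3, 13.2 and 12.7 in WT CDAHFD and 12.8, 11.8 and 13.4 in KO CDAHFD.

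Hdac11, the single class IV enzyme, whose known activity removes fatty acyl groups, had the highest level per length of the class in WT chow, where it made up 22.1 ± 4.14% (SD, n = 4) of their summed CPM per kb. It measured 39.5, 44.1, 65.2 and 51.0 CPM in WT chow, 25.3 and 34.7 for KO chow (-0.74 ± 0.21, edgeR adjusted p = 0.0129), 37.95, 30.43 and 43.99 in WT CDAHFD and 40.7, 40.4 and 41.2 in KO CDAHFD. Hdac6, the tubulin deacetylase of the cytoplasm, fell in both CDAHFD groups against WT chow, from 26.6, 26.2, 28.6 and 28.0 CPM in WT chow to 21.7, 20.9 and 20.3 in WT CDAHFD (-0.39 ± 0.10, edgeR adjusted p = 0.00659) and 21.9, 20.6 and 21.7 in KO CDAHFD (-0.35 ± 0.10, adjusted p = 0.0106). KO chow had 19.7 and 25.3 CPM. With library size alone Hdac6 was not called in WT CDAHFD (0.17, edgeR adjusted p = 0.172) and was called higher in KO CDAHFD. The class I enzymes Hdac1, Hdac2, Hdac3 and Hdac8, mostly nuclear deacetylases, were not called in any comparison with WT chow, with changes between -0.16 and 0.36. Scaled by library size alone, all 4 were called higher in all 3, by 0.34 to 0.87. Without KO chow replicate 1 the calls of Hdac4, Hdac7, Hdac9 and Hdac11 in KO chow were lost (edgeR adjusted p = 0.217, 0.0954, 0.0721 and 0.168), at log2 changes of -0.33, 0.52, 0.93 and -0.51.

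Some calls near the threshold were lost in 6 or more of the 12 fits that leave out 1 library. Against WT chow these were Hdac4 (9 fits), Hdac9 (8), Kdm4b (8) and Setd1a (7) in KO chow, Kdm2b (8) in WT CDAHFD, and Prmt1 (8) and Kdm1a (7) in KO CDAHFD. The 2 KO chow libraries weighed heavily. Without replicate 1 the member median in KO chow was -0.05, and without replicate 2 it was -0.19. Each of these fits leaves KO chow 1 library, so their calls are not counted here.

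For the effect of genotype on the diet, 0 of 61 members were called between KO CDAHFD and WT CDAHFD by edgeR's quasi-likelihood test, where 0.357% of all genes were, and 0 passed an unadjusted p under 0.05. DESeq2 also called 0. The differences ran from -0.32 to 0.30 on the log2 scale. Between diets in KO mice, 3 members were called where 6.19% of all genes were, Prmt2 and Hdac7 higher in KO CDAHFD (3.76% of all genes) and Setd6 lower (2.44%). Between WT CDAHFD and KO chow 2 were called where 6.12% of all genes were, Kdm3b higher in WT CDAHFD (3.42%) and Setd6 lower (2.71%).

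The interaction, the genotype difference on the diet minus that on chow, was called for 7 members, 11.5% against 23.1% of all genes, 5 with a negative and 2 with a positive term (14.5% and 8.63% of all genes). Prmt2 (-1.48 ± 0.27, edgeR adjusted p = 0.00153), Setd7 (-1.26 ± 0.37, adjusted p = 0.0271), Ezh2 (-1.10 ± 0.19, adjusted p = 0.00121), Kmt5a (-0.97 ± 0.15, adjusted p = 0.000521) and Prmt3 (-0.66 ± 0.21, adjusted p = 0.0388) were higher in KO than in WT on chow and not called between the genotypes on the diet. Hdac11 (0.86 ± 0.28, edgeR adjusted p = 0.0401) and Kmt2d (0.65 ± 0.22, adjusted p = 0.0461) were lower in KO on chow, and likewise not called on the diet. Both of the latter, Prmt3 and Setd7 lost the call in at least 8 of the 12 fits that leave out 1 library, and Ezh2, Kmt5a and Prmt2 in none.

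The partners of these enzymes were read from lists that the rule does not cover. Their counts stand beside 22.0% higher and 17.0% lower among all genes in KO chow and 26.1% and 25.0% in WT CDAHFD, and with library size as the only scaling every such list had more higher than lower calls in both. Of 11 tested partners in Polycomb repressive complex 2, 2 rose and 1 fell in KO chow, and 1 rose and 3 fell in WT CDAHFD (6 and 1 in each with library size). Aebp2, a DNA-binding accessory subunit, rose by 1.08 ± 0.13 and 0.81 ± 0.11 (edgeR adjusted p = 2.71e-05 and 7.79e-05), and Rbbp4, a histone-binding subunit shared with deacetylase complexes, fell by 0.79 and 0.93. The 11 tested COMPASS partners had 0 higher and 4 lower calls in KO chow and 0 and 7 in WT CDAHFD, among them Cxxc1, which binds CpG islands (-0.55 and -0.61), and Men1 (-0.51 and -0.49). With library size as the only scaling, none of these COMPASS partners was called lower, and 4 and 7 were called higher.

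Of 25 deacetylase corepressor subunits, 1 rose and 6 fell in KO chow and 1 and 4 in WT CDAHFD, against 8 and 1 and 20 and 0 with library size. Chd3, a remodelling ATPase of the NuRD complex, fell by -1.22 ± 0.15 and -0.88 ± 0.13 (edgeR adjusted p = 3.55e-05 and 8.03e-05), and Sap30, of the Sin3 complex, rose by 0.92 ± 0.21 and 0.96 ± 0.19 (adjusted p = 0.00398 and 0.000991). Of 32 subunits of acetyltransferase complexes, 0 rose and 6 fell in KO chow, and 3 rose and 8 fell in WT CDAHFD, against 6 and 0 and 18 and 1 with library size, including Sgf29 of the SAGA complex (-0.90 ± 0.13 in WT CDAHFD, edgeR adjusted p = 8.14e-05). Of the 8 arginine methyltransferases and partners outside the rule, 0 rose and 1 fell in KO chow (median 0.18) and 0 and 2 in WT CDAHFD (median -0.22), against 4 and 0 in each with library size (medians 0.58 and 0.34).

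Enzymes of the same kinds with other names also held large changes. Hr (hairless), a demethylase of the Jumonji family and corepressor of nuclear receptors, rose from 0.776 ± 0.294 CPM in WT chow (SD, n = 4) to 5.17 ± 0.13 in KO chow (n = 2) and 11.4 ± 1.70 in WT CDAHFD (n = 3), by 2.75 ± 0.24 and 3.88 ± 0.22 (edgeR adjusted p = 2.99e-06 and 5.32e-08). It was 1 of 8 other demethylases, of which 1 rose and 2 fell in KO chow and 1 rose in WT CDAHFD, against 3 and 0 and 6 and 0 with library size. Of 9 other acetyltransferases, 1 rose and 5 fell in KO chow (median -0.48) and 1 and 1 in WT CDAHFD, against 2 and 1 and 6 and 1 with library size. Hat1, which acetylates newly made histone H4, rose by 0.84 ± 0.15 and 0.52 ± 0.14 (edgeR adjusted p = 0.000829 and 0.00710), and Naa60 fell by -1.13 ± 0.15 and -0.99 ± 0.13 (adjusted p = 8.11e-05 and 3.86e-05). Among 19 other lysine methyltransferases, 2 rose and 6 fell in KO chow and 1 and 6 in WT CDAHFD (5 and 1 and 11 and 0 with library size), with Nsd3 at -1.03 ± 0.18 and Ehmt1 at -0.71 ± 0.17 in KO chow (edgeR adjusted p = 0.000767 and 0.00530).

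Of the partners and other enzymes named, Rbbp4, Naa60, Nsd3, Chd3 in KO chow and Sgf29 were also called lower with library size, with log2 changes from -0.82 (Chd3) to -0.34 (Sgf29). Without KO chow replicate 1, Aebp2, Rbbp4, Cxxc1, Chd3, Hr, Hat1, Naa60 and Nsd3 kept their calls in KO chow. Men1 (-0.53), Sap30 (0.76) and Ehmt1 (-0.52) did not (edgeR adjusted p = 0.0854, 0.0503 and 0.0946).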

How the data were processed

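RNA from whole mouse liver was read as poly(A)-selected, non-directional libraries. The authors deposited 1 table of raw counts per gene. Per the submitters' processing notes and the study's methods, reads were checked with FastQC 0.11.5, aligned with STAR 2.7.3a to GRCm38 and tested with DESeq2, and the counting program and annotation release are not given in the sources used here. Gene names, positions and exon lengths (merged exons of all transcripts) came from GENCODE on GRCm38, which held 94.08% of the table's identifiers and 99.691% of its counts.

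Totals ran from 29906785 to 43551003 counts per library (median 36989922). Counts were fitted with edgeR 4.0.16 (R 4.3.3, quasi-likelihood test, TMM factors, filterByExpr, 4 group means over 12 libraries), and p-values were adjusted by Benjamini-Hochberg over 17358 genes in each of 7 comparisons. CPM values were computed from the deposited counts with TMM-scaled library sizes, and CPM per kb by dividing by exon length. Mean, SD and ranges were taken in pandas 2.3.3 and figures drawn in matplotlib 3.10.9. The fit was tested on simulated data.

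In each class, the 4 members of smallest adjusted p in KO chow and the 4 in WT CDAHFD against WT chow, the member of highest level per length, and every member called in another comparison or the interaction were named with every library's value, 29 in all. A further 6 called members were added after their values were seen. Partner lists gave the 2 genes of smallest adjusted p in each of the same comparisons. The members and all lists were chosen with earlier results of these data known. Alternatives were library size as the only scaling, DESeq2 1.42.0, no filter, a stricter filter (a mean of 50 counts), the replicate number as a block, the clock score as a covariate, and leaving out each library in turn. The number of libraries per group limits the precision of every SE. Groups follow the labels, which give 4, 3, 2 and 3 libraries, and the study's methods state a number of mice per group for sequencing that differs from the labels for WT chow and KO chow. The study's histology sheet lists 3 KO chow and 2 KO CDAHFD mice, which may not be the sequenced mice.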

Additional observations from a re-analysis of the deposited data

Results flagged for a closer look

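Within WT chow, 2 of the 62 enzymes measured there had 1 library far from the other 3, where chance flags about 1 in 20 groups. Setd7 was at 16.3 CPM in WT chow replicate 1, against 7.78 to 8.53 CPM in the others. Hdac9 was at 0.917 CPM in WT chow replicate 4, against 1.75 to 1.83 CPM.

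The difference between KO and WT was not the same on the 2 diets for 7 enzymes, by the interaction term of edgeR's quasi-likelihood test. The term was -1.10 for Ezh2 (adjusted p = 0.00121), -0.97 for Kmt5a (adjusted p = 0.000521), -1.48 for Prmt2 (adjusted p = 0.00153), -0.66 for Prmt3 (adjusted p = 0.0388) and -1.26 for Setd7 (adjusted p = 0.0271) on the log2 scale. It was 0.86 for Hdac11 (edgeR adjusted p = 0.0401) and 0.65 for Kmt2d (adjusted p = 0.0461). With library size as the only scaling the terms of Hdac11 and Kmt2d were 0.51 and 0.30 and no longer called (edgeR adjusted p = 0.176 and 0.314), and the other 5 were kept.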

How the results depend on the processing

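KO chow rests on 2 libraries, so leaving out either leaves 1, whose spread is assumed to be that of the other groups. Low counts kept Prmt8 and Kdm4d out of the tests. Stricter filtering and DESeq2 kept every member call against WT chow. With the clock score as a covariate all such calls were kept too.

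With library size as the only scaling, members called higher and lower were 22 and 0 in KO chow, 43 and 1 in WT CDAHFD and 46 and 0 in KO CDAHFD against WT chow, with median log2 changes of 0.28, 0.51 and 0.54. From KO chow to KO CDAHFD they were 6 and 0 (median 0.26), from KO chow to WT CDAHFD 5 higher (median 0.24), and the interaction was called for 12 (median -0.22). Among named enzymes with a call under at least 1 of both scalings, these turned from lower to higher with library size: in KO chow Hdac4 (0.02), Kdm4b (0.05) and Setd3 (0.28). In WT CDAHFD they were Hdac4 (0.43), Hdac6 (0.17), Kat2b (0.02), Kat7 (0.49), Kat8 (0.18), Kdm1b (0.42), Kdm4b (0.23), Kdm5b (0.35), Kdm5d (0.12), Kmt2b (0.39), Kmt2d (0.46), Prmt9 (0.22) and Setd3 (0.35). In KO CDAHFD they were Hdac4 (0.45), Hdac6 (0.26), Kat7 (0.54), Kat8 (0.17), Kdm1b (0.27), Kdm3b (0.54), Kdm4b (0.43), Kdm5b (0.36), Kdm5c (0.03), Kdm5d (0.13), Kmt2b (0.54), Prmt9 (0.42), Setd3 (0.38) and Setd6 (0.19). Hdac6 and Kdm1b in KO CDAHFD were called in both directions, lower with TMM scaling and higher with library size. The shift of all genes under that scaling accounts for these turns by construction.

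Same-numbered libraries of different groups deviated together with r from -0.242 to 0.266, and differently numbered ones with r from -0.266 to 0.245. The deviations of the 2 KO chow libraries mirror each other by construction, so these values cannot decide whether the replicate numbers pair the libraries. With the number as a block, members called higher and lower were 6 and 6 in KO chow, 6 and 4 in WT CDAHFD and 5 and 7 in KO CDAHFD, 0 and 0 from KO chow to KO CDAHFD, and 0 higher from KO chow to WT CDAHFD, and the interaction was called for 3. Without the filter, lower calls were 3 in WT CDAHFD and 4 in KO CDAHFD, 0 from KO chow to KO CDAHFD, and from KO chow to WT CDAHFD 3 were higher and 2 lower. DESeq2 gave 4 higher from KO chow to KO CDAHFD, 5 higher and 5 lower from KO chow to WT CDAHFD, and 11 for the interaction. From KO chow to WT CDAHFD the stricter filter gave 2 higher and the clock covariate 6 higher and 6 lower. The cause was not tested.

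Leaving out each library in turn, members called higher ranged from 6 to 12 and lower from 0 to 19 in KO chow, where KO chow replicate 1 gave the 0 and replicate 2 the 19. They ranged from 6 to 9 and 3 to 9 in WT CDAHFD, from 5 to 9 and 7 to 9 in KO CDAHFD, from 0 to 3 and 0 to 1 from KO chow to KO CDAHFD, and from 0 to 3 and 0 to 2 from KO chow to WT CDAHFD. The interaction ranged from 3 to 10, and no member was called between the CDAHFD groups. The member medians ranged from -0.19 to -0.05 with KO chow, from -0.06 to -0.02 with WT CDAHFD, from -0.13 to -0.01 with KO CDAHFD, -0.05 to 0.00 between the CDAHFD groups, -0.06 to 0.19 from KO chow to KO CDAHFD, -0.01 to 0.19 from KO chow to WT CDAHFD and 0.02 to 0.17 for the interaction.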

Other observations

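Of the 61 enzymes tested, 30 were called in none of the 3 comparisons with WT chow (49.2%, against 36.8% of all genes). They include both demethylases of the Polycomb mark, Kdm6a and Kdm6b. Kdm6a ranged from 20.7 to 22.8 CPM in WT chow, from 19.9 to 24.2 in WT CDAHFD, from 19.2 to 25.4 in KO chow and from 17.5 to 19.6 in KO CDAHFD, and Kdm6b from 25.1 to 41.6, 32.2 to 37.6, 23.3 to 33.1 and 29.7 to 46.0 CPM. Their changes lay between -0.29 and 0.14 on the log2 scale, beside rises of 0.84 to 1.19 for Ezh2, the enzyme that writes the mark. Setd2, which writes the methyl mark of transcribed gene bodies, and Kdm2a and Kdm4a, which erase it or related marks, were not called either, with changes between -0.33 and 0.21. This depended on the scaling. By library size alone Kdm6a and Kdm4a were called higher in all 3 comparisons, and Kdm6b, Kdm2a and Setd2 in both CDAHFD groups, by 0.41 to 0.76.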
